A study of Mus musculus with 4 samples.

Results

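The genes of the G2/M phase and of mitosis were followed in sorted mouse AEC2, the type II cells of the alveolar lining, which make surfactant and also act as its progenitors. The 32 members were a fixed list of symbols covering cyclins and kinases of mitotic entry, the chromosomal passenger complex, the checkpoint and kinetochore, spindle motors, the anaphase-promoting complex, cytokinesis and chromosome structure. Of these, 31 were read by 68 probe sets and made up 31 of 18193 genes on the array. The cyclin gene Ccnb1 had no probe set with a single gene symbol and was not analysed here. The 4 arrays came from Tlr4-/- mice 4 days after bleomycin, wild-type mice 4 days after bleomycin, untreated Tlr4-/- mice and untreated wild-type mice. Bleomycin is a drug that injures the lung epithelium, and Tlr4 encodes a pattern recognition receptor of innate immunity. Cells were sorted by flow cytometry, and each RNA came from a pool of 4 to 5 mice. Each group therefore had 1 array, without replicates, and no spread within a group could be measured. The labels did not give the age, sex or strain of the mice, nor what the untreated mice received in place of the drug.

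In a dividing cell, cyclin B and cyclin A drive the kinase Cdk1 into mitosis, Plk1 and the Aurora kinases build the spindle, and the checkpoint proteins at the kinetochore hold the anaphase-promoting complex back until every chromosome is attached. Transcripts of these genes accumulate together in G2. In quiescent cells the DREAM complex holds them down, and in G2 the MuvB core with B-Myb and Foxm1 turns them on, through promoter elements called the cell cycle genes homology region (CHR) and the CCAAT box. AEC2 rarely divide in an uninjured lung and re-enter the cycle after epithelial injury, which makes these genes a common readout of their renewal.

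The cell type label was set against markers first. The 11 AEC2 markers on the array, surfactant protein genes among them, had mean log2 signals of 12.25 in Tlr4-/- and 12.42 in wild-type cells at day 4, against 12.42 in untreated Tlr4-/- and 12.51 in untreated wild-type cells. The G2/M genes were dim. Their mean signals over the 4 arrays lay between 4.82 and 8.81 with a median of 6.37, and 24 of 31 lay below 7.05, the median log2 signal over all genes. A list of 27 genes of other organs, kept as a description of signal where no expression was looked for, ranged between 3.61 and 7.75 with a median of 5.79. Probe sets differ in their own brightness, so the signals of different genes were not ranked against each other.

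One limit of the design touches every comparison below. Of the 4 Tlr4 probe sets, 1 was lower in Tlr4-/- than in wild-type cells, with log2 differences of -2.68 at day 4 and -1.63 untreated. Of the others, 1 was dim on all arrays and 2 were higher in Tlr4-/- cells in both treatments. Which part of the gene each of them reads was not given. The Y-linked Eif2s3y was higher at day 4 by 2.01 in Tlr4-/- and 2.04 in wild-type cells, so the sex make-up of the pools cannot be told apart from the treatment. Leukocyte and macrophage markers also moved with bleomycin. In the limma fit described below, 14 of 16 tested rose, beside 7.18% of all genes tested. Some of them, C1qa for example, passed its filter on signal only through their day 4 arrays. Without the filter 12 of 20 rose, beside 1.75% of all genes. The mean log2 signal over the 20 on the array was 9.10 in Tlr4-/- and 8.85 in wild-type cells at day 4. It was 7.75 in untreated Tlr4-/- and 7.48 in untreated wild-type cells. The part of this list in the results below was not tested. In bulk RNA, more dividing cells and more of a transcript per cell cannot be told apart.

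At day 4 after bleomycin, 2 of the 7 members bright enough to be tested rose across both genotypes. They were Ube2c, the ubiquitin-conjugating enzyme that works with the anaphase-promoting complex, and Cdca8, the borealin subunit of the chromosomal passenger complex. No tested member fell, and of the 7, 6 had an unadjusted limma p under 0.05, each with a higher signal at day 4, beside 2175 of all 9096 genes tested. After adjustment 7.18% of these genes rose and 2.53% fell. The test was limma's moderated test on an additive model of treatment and genotype, in which the genotypes stand in for replicates, with Benjamini-Hochberg adjustment over all genes tested. Genes were tested when their mean over the 4 arrays passed 7.05, so a gene high only at day 4 could enter through those arrays. Cdca8 was below 7.05 in both untreated arrays, Cdc20 in untreated Tlr4-/- (6.72) and Prc1 in untreated wild-type cells (6.98). Bub1, at 6.98 in untreated Tlr4-/- and 7.28 in untreated wild-type cells, was left out with a mean of 6.57. The filter thus favoured members higher at day 4, and the direction among the 7 cannot be read apart from it. When all 18193 genes were fitted, 3 members rose, adding Birc5, and 1 fell, the checkpoint kinase gene Bub1, beside 1.75% of all genes that rose and 0.264% that fell.

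Ube2c passes ubiquitin to the substrates of the anaphase-promoting complex, cyclin B and securin among them. Its log2 signal was 9.0 in Tlr4-/- and 8.67 in wild-type cells at day 4, against 7.82 in untreated Tlr4-/- and 7.38 in untreated wild-type cells. Both day 4 arrays were above both untreated arrays. The difference corresponded to 2.27-fold in Tlr4-/- and 2.45-fold in wild-type cells, and the average log2 difference was 1.24 ± 0.16 (limma standard error, adjusted p = 0.000313). With 1 array left out and treatment as the only factor, the adjusted p by limma was 0.106 without the wild-type day 4 array and 0.312 without the Tlr4-/- day 4 array, and the average difference then stood at 1.40 and 1.07.

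Cdca8 read 7.87 in Tlr4-/- and 7.23 in wild-type cells at day 4, against 6.78 in untreated Tlr4-/- and 6.36 in untreated wild-type cells. The arrays of the treatments did not overlap. That is 2.12-fold in Tlr4-/- and 1.82-fold in wild-type cells, with an average log2 difference of 0.98 ± 0.16 (limma, adjusted p = 0.00182). Its mean of 7.06 was just above the filter, which both untreated values were below, so it entered this test only through its day 4 arrays. In the fit of all genes, where no such choice was made, the limma adjusted p was 0.0349. The call was lost without the wild-type day 4 array (limma adjusted p = 0.112), without the untreated wild-type array (0.0887) and without the Tlr4-/- day 4 array (0.606), and also when only the brightest of its 3 probe sets was used (0.0788).

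Birc5 encodes survivin, the partner of borealin in the passenger complex, which corrects faulty attachments of chromosomes to the spindle. It read 7.31 in Tlr4-/- and 6.62 in wild-type cells at day 4, against 5.96 in untreated Tlr4-/- and 5.67 in untreated wild-type cells. The day 4 arrays were the higher ones in both genotypes, by 2.54-fold in Tlr4-/- and 1.93-fold in wild-type cells. It was below the filter. In the fit of all genes the average log2 difference was 1.15 ± 0.15 (limma, adjusted p = 0.0322).

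Bub1, a kinase that marks the centromere and recruits checkpoint proteins to unattached kinetochores, moved the other way. It read 5.88 in Tlr4-/- and 6.13 in wild-type cells at day 4, against 6.98 in untreated Tlr4-/- and 7.28 in untreated wild-type cells. Both of its probe sets were lower at day 4 in each genotype, with log2 differences of -1.43 and -0.78 in Tlr4-/- and of -1.21 and -1.09 in wild-type cells. The gene average was 2.15-fold lower in Tlr4-/- and 2.22-fold lower in wild-type cells, or -1.13 ± 0.12 on the log2 scale in the fit of all genes (limma, adjusted p = 0.0244). Bub1 was also below the filter, though its untreated wild-type value was above it. Birc5 and Bub1 were tested only in fits without the filter. Their calls were therefore not checked with an array left out or with the brightest probe set.

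**Figure D1:**
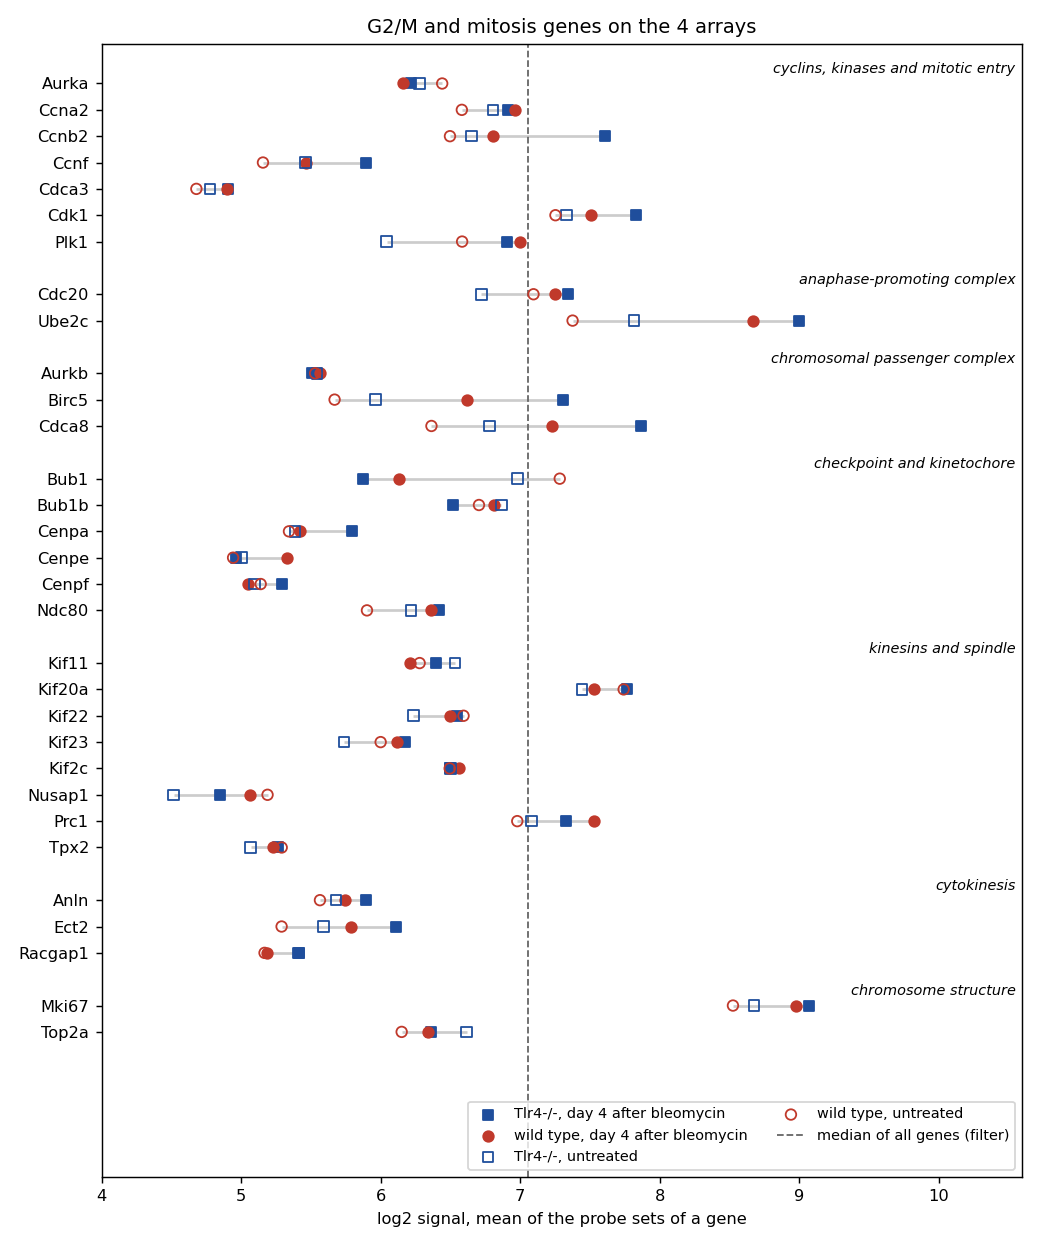
Log2 signal of the 31 members on the 4 arrays, as the mean of the probe sets of a gene, grouped by role; 1 point per array, filled squares and circles for day 4 and open ones for untreated, and a dashed line at 7.05, the median of all genes. Ube2c, Birc5 and Cdca8 have both filled points to the right of both open points, Bub1 has them to the left, and most other genes lie left of the line with points close together.

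Promoters are shown for the 4 members called in either fit and for Plk1 and Ect2, the next members by the smaller of the genotypes' differences in that fit. They are the 150 bases upstream of the start site in RefSeq's annotation of mouse build GRCm38.p6, given 5′ to 3′ on the strand of the gene, with base -1 last. Capitals mark CCAAT or its reverse complement ATTGG, and TTTGAA or its reverse complement TTCAAA, the core of the CHR. The regions are chr2:164769779-164769928 on the plus strand for Ube2c, chr4:124936918-124937067 on the minus strand for Cdca8, chr11:117849087-117849236 on the plus strand for Birc5, chr2:127831860-127832009 on the minus strand for Bub1, chr7:122159285-122159434 on the plus strand for Plk1 and chr3:27153879-27154028 on the minus strand for the first of both start sites of Ect2.
Ube2c: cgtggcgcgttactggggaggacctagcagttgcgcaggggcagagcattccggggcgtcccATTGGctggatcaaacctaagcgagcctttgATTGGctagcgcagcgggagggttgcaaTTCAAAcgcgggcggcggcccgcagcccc
Cdca8: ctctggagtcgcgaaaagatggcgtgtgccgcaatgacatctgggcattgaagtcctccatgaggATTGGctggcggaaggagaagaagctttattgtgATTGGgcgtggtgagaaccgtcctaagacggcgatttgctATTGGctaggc
Birc5: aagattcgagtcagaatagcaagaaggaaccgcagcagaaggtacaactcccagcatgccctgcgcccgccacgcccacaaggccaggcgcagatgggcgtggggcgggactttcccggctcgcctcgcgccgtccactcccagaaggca
Bub1: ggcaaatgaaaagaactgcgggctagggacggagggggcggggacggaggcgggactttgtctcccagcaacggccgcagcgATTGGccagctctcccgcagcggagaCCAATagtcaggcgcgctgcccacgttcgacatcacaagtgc
Plk1: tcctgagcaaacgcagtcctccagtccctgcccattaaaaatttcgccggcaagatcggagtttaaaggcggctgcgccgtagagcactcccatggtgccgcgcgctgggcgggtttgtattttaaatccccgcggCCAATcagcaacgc
Ect2: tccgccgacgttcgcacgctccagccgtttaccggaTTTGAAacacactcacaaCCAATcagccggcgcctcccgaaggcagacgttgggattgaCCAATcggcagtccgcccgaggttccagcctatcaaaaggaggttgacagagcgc

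The Ube2c window carries its CHR letters at base -29 behind CCAAT boxes at -88 and -57, counted at the first base of each match. Cdca8 has CCAAT boxes at -85, -51 and -11, and its TTTGAA lies downstream of the start, at base 14. Bub1, which was lower at day 4, has the same kind of promoter, with CCAAT boxes at -68 and -42 and the CHR variant TTCGAA at base 15. Birc5, which was higher, holds none of these letters in the window searched.

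RefSeq promoters were matched for 28 of the 32 members by symbol, with 30 start sites. Each was searched on both strands over 250 bases before and 50 bases after the start. Ccna2, Aurkb, Kif20a and Tpx2 were not searched. TTTGAA or TTCGAA was found in 26 of 30 windows (86.7%), against 19.2% of 32851 promoters of all genes. CCAAT was found in 25 of 30 (83.3%), against 37.4% of all promoters, and at least 2 copies in 17 of 30, against 11.7%. A match describes the letters and not a bound site.

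Over the whole list, the differences were small and leaned upward. The median log2 difference between day 4 and untreated cells was 0.25 in Tlr4-/- and 0.18 in wild-type cells, beside -0.03 in Tlr4-/- and 0.00 in wild-type cells over all genes. In each genotype 23 of 31 members were above 0, beside 45.7% of all genes in Tlr4-/- and 50.3% in wild-type cells. Both day 4 arrays were above both untreated arrays for 17 of 31 members, beside 23.1% of all genes, and below them for 2 members, Bub1 and Aurka, beside 25.3% of all genes. A total of 18 members were higher in both genotypes, as were 30.0% of all genes, and 3 were lower in both (Bub1, Aurka and Kif11), as were 33.9% of all genes. The other 10 differed in sign between the genotypes. Taking 0.23, limma's prior standard deviation of a difference between 2 arrays, as the spread, 10 members were higher in both genotypes beyond it, beside 11.3% of all genes, 1 was lower, beside 6.98%, and 8 lay within it in both, beside 39.7%.

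At least 2-fold differences were few. In Tlr4-/- cells 3 members were 2-fold higher (Birc5, Ube2c and Cdca8), beside 1.88% of all genes, and Bub1 alone was 2-fold lower, beside 0.775%. In wild-type cells Ube2c was 2-fold higher, beside 1.82% of all genes, and Bub1 was 2-fold lower, beside 0.445%. These pairwise counts have no test.

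**Figure D2:**
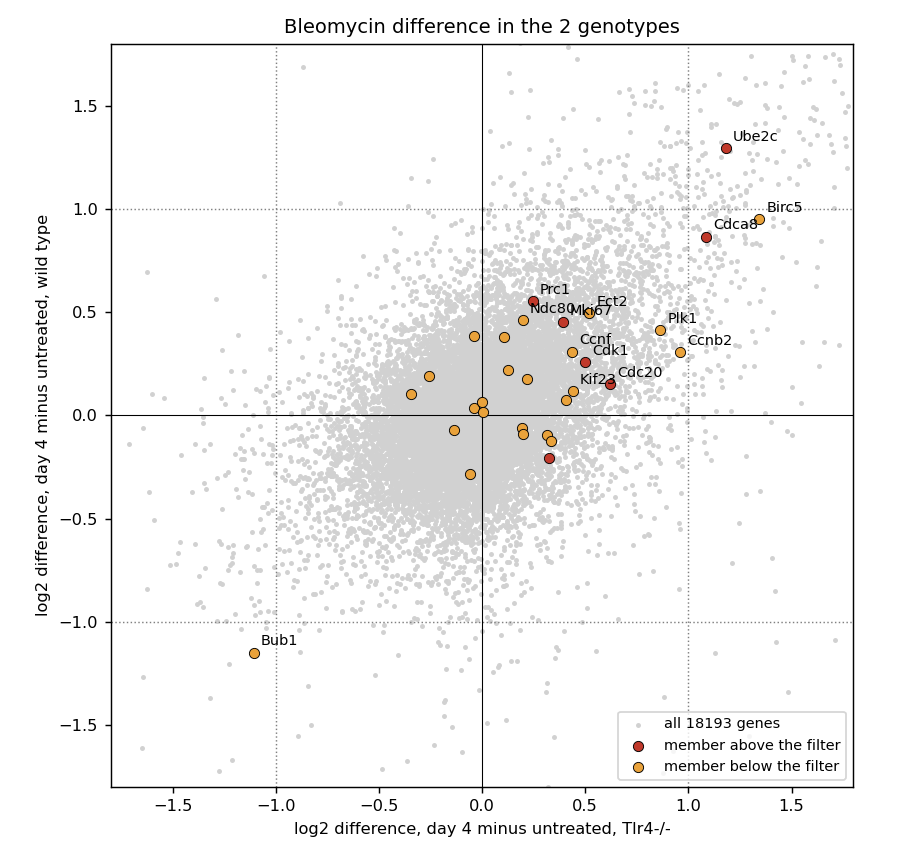
Log2 difference between day 4 and untreated cells in Tlr4-/- (horizontal axis) and wild type (vertical axis); red points are the 7 members above the filter, orange points the 24 below it, grey points all 18193 genes, and dotted lines mark 2-fold (genes past 1.8 on an axis are outside the frame). Ube2c, Birc5 and Cdca8 lie in the upper right and Bub1 in the lower left, Ccnb2 (0.96 and 0.31) and Plk1 (0.86 and 0.41) lie nearer to 2-fold in Tlr4-/- than in wild type, and the other members lie within 0.62 of 0 on both axes.

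Among cyclins, kinases and other genes of mitotic entry, 6 of the 7 on the array had a positive average, with a median difference of 0.44 in Tlr4-/- and 0.31 in wild-type cells. Cdk1, the mitotic kinase itself, read 7.83 in Tlr4-/- and 7.51 in wild-type cells at day 4, against 7.33 in untreated Tlr4-/- and 7.25 in untreated wild-type cells. Its average difference of 0.38 ± 0.16 did not pass the test (limma, adjusted p = 0.166). Plk1, the Polo-like kinase of spindle assembly and mitotic exit, had 6.91 in Tlr4-/- and 7.0 in wild-type cells at day 4, against 6.04 in untreated Tlr4-/- and 6.58 in untreated wild-type cells. The day 4 values were close together and the untreated ones were not, and in the fit of all genes its average of 0.64 ± 0.16 had a limma adjusted p of 0.125.

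Ccnb2, the B-type cyclin that was measured, stood out on a single array. It read 7.61 in Tlr4-/- and 6.81 in wild-type cells at day 4, against 6.65 in untreated Tlr4-/- and 6.50 in untreated wild-type cells. Its difference was 0.96 in Tlr4-/- and 0.31 in wild-type cells, and the average of 0.63 ± 0.19 did not pass (limma without the filter, adjusted p = 0.173). Ccna2, the cyclin of S phase and G2, differed by 0.11 in Tlr4-/- and 0.38 in wild-type cells. Ccnf, the F-box cyclin that directs ubiquitination, differed by 0.44 in Tlr4-/- and 0.31 in wild-type cells. Aurka, the centrosomal Aurora kinase, was the exception, at -0.06 in Tlr4-/- and -0.28 in wild-type cells. Its 2 probe sets disagreed, with averages of 0.19 in the one of higher signal and -0.53 in the other. Cdca3, a trigger of mitotic entry, averaged 0.17 over 3 probe sets that did not move together. One had 6.97 in Tlr4-/- and 7.0 in wild-type cells at day 4, against 6.59 in untreated Tlr4-/- and 5.81 in untreated wild-type cells, while the other two stayed between 3.65 and 4.30.

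Cdc20, the activator that the checkpoint holds back from the anaphase-promoting complex, is the other member of this pathway beside Ube2c. It read 7.34 in Tlr4-/- and 7.25 in wild-type cells at day 4, against 6.72 in untreated Tlr4-/- and 7.10 in untreated wild-type cells. The untreated Tlr4-/- array was the low one, and the average of 0.39 ± 0.17 did not pass the test (limma, adjusted p = 0.183). The low value came mainly from a single probe set, at 6.56 in untreated Tlr4-/- against 7.37 in untreated wild-type cells. The other probe sets of Cdc20 read 7.31 against 7.53 and 6.30 against 6.39. In the passenger complex, Aurkb, its kinase subunit, did not follow Cdca8 and Birc5. It read 5.51 in Tlr4-/- and 5.57 in wild-type cells at day 4, against 5.55 in untreated Tlr4-/- and 5.53 in untreated wild-type cells.

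The checkpoint and kinetochore genes had no member above the filter, and their differences had a median of 0.08 in Tlr4-/- and 0.09 in wild-type cells. Bub1b, the BubR1 inhibitor of Cdc20, differed by -0.34 in Tlr4-/- and 0.11 in wild-type cells. Ndc80, which grips the ends of microtubules at the kinetochore, read 6.41 in Tlr4-/- and 6.36 in wild-type cells at day 4, against 6.22 in untreated Tlr4-/- and 5.90 in untreated wild-type cells. Cenpa, the histone variant of the centromere, differed by 0.41 in Tlr4-/- and 0.08 in wild-type cells. The kinetochore motor Cenpe differed by -0.04 in Tlr4-/- and 0.38 in wild-type cells, and the kinetochore protein Cenpf by 0.20 in Tlr4-/- and -0.09 in wild-type cells. Bub1 was thus the member of this group past 2-fold, and the other 5 had averages between -0.12 and 0.33.

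For the 8 kinesins and spindle proteins no call was made, and 2 of them were bright enough to be tested. Their median difference was 0.28 in Tlr4-/- and -0.07 in wild-type cells. Prc1, which bundles the microtubules of the midzone, read 7.33 in Tlr4-/- and 7.53 in wild-type cells at day 4, against 7.08 in untreated Tlr4-/- and 6.98 in untreated wild-type cells. Its arrays did not overlap between treatments, and its average of 0.40 ± 0.16 did not pass the test (limma, adjusted p = 0.148). Kif20a, the motor that carries the passenger complex to the midzone, read 7.77 in Tlr4-/- and 7.53 in wild-type cells at day 4, against 7.44 in untreated Tlr4-/- and 7.74 in untreated wild-type cells. It was higher at day 4 in Tlr4-/- and lower in wild-type cells, and the average was 0.06 ± 0.17 (limma, adjusted p = 0.885).

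Kif23, a motor of the cleavage site, differed by 0.44 in Tlr4-/- and 0.12 in wild-type cells. The chromosome motor Kif22 differed by 0.31 in Tlr4-/- and -0.09 in wild-type cells. Kif2c, which takes microtubule ends apart, hardly differed, at 0.00 in Tlr4-/- and 0.06 in wild-type cells. Kif11, the motor that pushes the spindle poles apart, averaged -0.10, Tpx2, the activator of Aurka, 0.07, and Nusap1, a bundler of spindle microtubules, 0.11.

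Of the cytokinesis genes, Ect2, which activates RhoA at the cleavage furrow, differed most. It read 6.11 in Tlr4-/- and 5.79 in wild-type cells at day 4, against 5.59 in untreated Tlr4-/- and 5.29 in untreated wild-type cells. The difference was alike in the genotypes, 0.52 in Tlr4-/- and 0.50 in wild-type cells, but it did not pass (limma without the filter, 0.51 ± 0.12, adjusted p = 0.123). Anln, the scaffold of the contractile ring, differed by 0.22 in Tlr4-/- and 0.18 in wild-type cells. Racgap1, the partner of Kif23, differed by 0.01 in Tlr4-/- and 0.02 in wild-type cells.

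Mki67, whose product coats mitotic chromosomes and is the usual marker of cycling cells, read 9.07 in Tlr4-/- and 8.98 in wild-type cells at day 4, against 8.68 in untreated Tlr4-/- and 8.53 in untreated wild-type cells. Both day 4 arrays were above both untreated arrays, but the average of 0.42 ± 0.16 did not pass the test (limma, adjusted p = 0.112). Top2a, which untangles sister chromatids, read 6.36 in Tlr4-/- and 6.34 in wild-type cells at day 4, against 6.62 in untreated Tlr4-/- and 6.15 in untreated wild-type cells. The treatments overlapped, and the sign of its difference was opposite in the genotypes.

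Probe sets of a gene did not always move together. Among the 22 members with several probe sets, all probe sets had the same sign of average difference in 9. In 7 members (Top2a, Kif11, Tpx2, Cenpf, Aurka, Cdca3 and Kif2c) probe sets lay in opposite directions beyond 0.16, the standard deviation of a mean of 2 differences by limma's prior. For Tpx2, the brightest of 4 probe sets read 6.51 in Tlr4-/- and 6.29 in wild-type cells at day 4, against 5.78 in untreated Tlr4-/- and 5.83 in untreated wild-type cells, and the other three had averages between -0.27 and 0.01. The 3 probe sets of Cdca8 were all higher at day 4, by averages of 0.31, 1.04 and 1.58. Ube2c and Birc5 rested on 1 probe set each. Across all 68 probe sets of the members, 36 were above 0 in both genotypes and 13 below 0 in both. The same was not counted over all probe sets of the array.

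**Figure D3:**
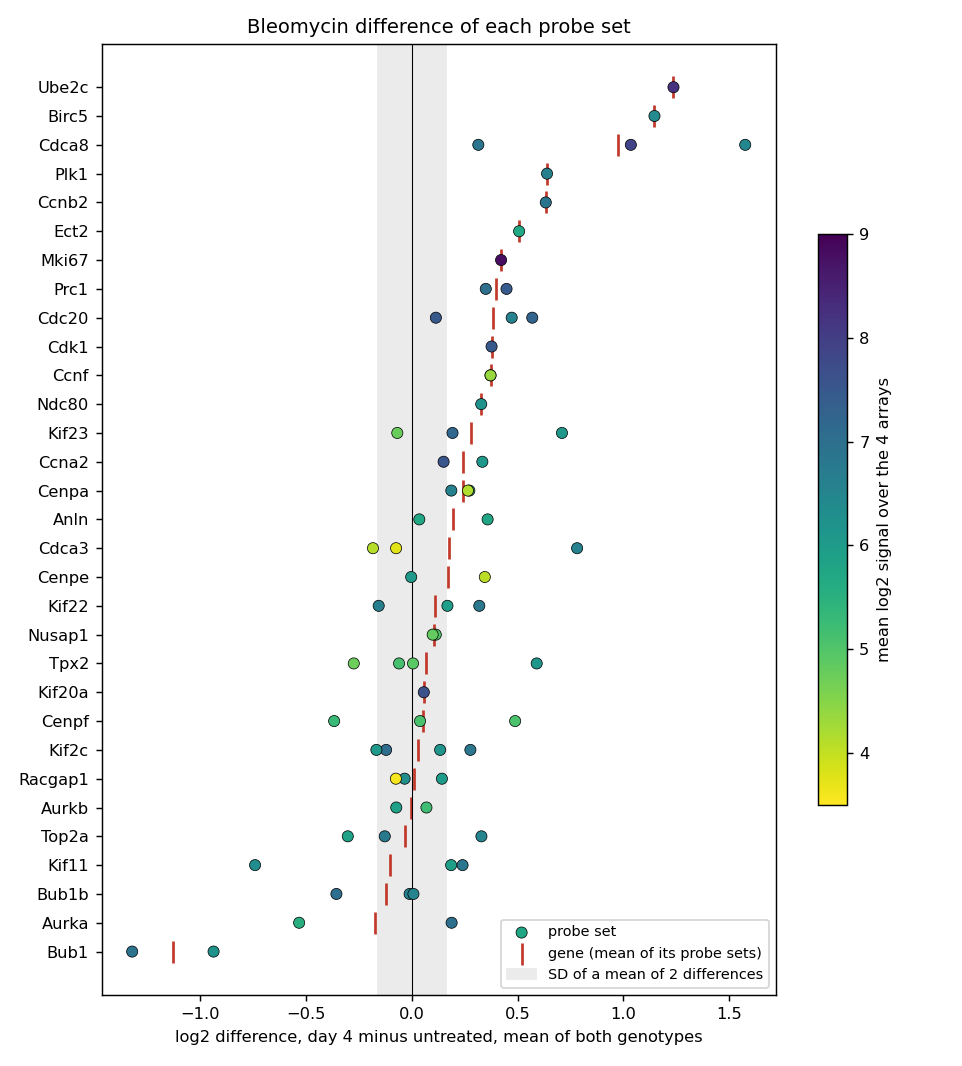
Average log2 difference between day 4 and untreated cells for each of 68 probe sets, coloured by mean signal, with a red tick for the gene; the grey band is the standard deviation of a mean of 2 differences, 0.16 to either side of 0. The probe sets of Cdca8 lie right of 0 and both of Bub1 left of it, while those of Top2a, Kif11, Tpx2, Cenpf, Aurka, Cdca3 and Kif2c lie past the band on both sides.

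Other cell cycle lists, drawn up with earlier results of these data known, were read in the same fit. Of 64 other mitotic genes on the array, 19 were tested, 5 rose and 1 fell. Psrc1, a microtubule protein of the spindle, read 8.21 in Tlr4-/- and 7.87 in wild-type cells at day 4, against 7.02 in untreated Tlr4-/- and 6.34 in untreated wild-type cells, an average difference of 1.37. Cks1b and Cks2, small proteins bound to Cdk1, differed by averages of 1.09 and 0.99, and Gtse1, a microtubule protein of G2, by 0.85. The remaining calls, named after their values were seen, were the kinetochore gene Zwint at 0.56 and the histone gene H2ax at -0.53. In the fit of all genes Psrc1, Cks1b and Cks2 kept their calls, while Gtse1 (limma adjusted p = 0.0776), Zwint (0.104) and H2ax (0.112) lost theirs. Below the filter, Ckap2, a spindle protein, at 1.20 (limma adjusted p = 0.025) and Mad2l1, the checkpoint protein Mad2, at 0.91 (0.0382) passed there, and were also named after their values were seen. Foxm1, an activator of these genes in G2, read 6.44 in Tlr4-/- and 6.40 in wild-type cells at day 4, against 6.45 in untreated Tlr4-/- and 6.51 in untreated wild-type cells. The median over the 64 was 0.10.

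The list of the anaphase-promoting complex held its core subunits and also Fzr1, Fbxo5 and Ube2s. It had no limma call among 15 tested, with 1 at an unadjusted p under 0.05, and a median of 0.02 over 17 genes. The MuvB and DREAM genes had none among 7, also with 1 unadjusted, and a median of 0.03. Among S phase genes 1 of 13 rose, the replicative helicase gene Mcm4, by 0.74 on average, and 4 had an unadjusted p under 0.05. Among genes that control entry into the cell cycle 3 of 7 rose. They were Myc by 1.0, the D-type cyclin gene Ccnd1 by 0.90 and Rb1, whose retinoblastoma protein restrains entry, by 0.60. Among inhibitors of cyclin-dependent kinases 2 of 5 rose. Cdkn1a, the p21 inhibitor that p53 induces, read 12.35 in Tlr4-/- and 12.36 in wild-type cells at day 4, against 11.17 in untreated Tlr4-/- and 10.43 in untreated wild-type cells, an average difference of 1.55. Cdkn2b, the p15 inhibitor of Cdk4 and Cdk6, differed by 0.57. In the fit of all genes only Cdkn1a kept a call among these 3 lists of inhibitors, entry and S phase genes.

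Marker genes were tested in the same fit. All 3 mesothelial markers tested rose, with a mean log2 signal over the 7 on the array of 7.16 in Tlr4-/- and 7.48 in wild-type cells at day 4, against 5.78 in untreated Tlr4-/- and 6.73 in untreated wild-type cells. Of the others, 1 of 2 fibroblast markers, 1 of 3 neutrophil markers and 1 of 2 lymphocyte markers rose, and 2 of 4 ciliated markers fell. In the fit of all genes, limma called 2 of 7 mesothelial, 3 of 9 fibroblast and 1 of 8 neutrophil markers higher. There it called 1 of 10 endothelial markers lower, and no lymphocyte or ciliated marker. With the filter, limma made no call among 11 AEC2, 7 club, 2 endothelial and 1 basal marker. Of these, 1 AEC2 and 1 club marker had an unadjusted limma p under 0.05. For the club markers that average joins opposite signs. All 7 were higher at day 4 in Tlr4-/- cells, with a median of 0.55, and lower in wild-type cells, with a median of -0.38. The ciliated list was split too. All 7 ciliated markers were lower in wild-type cells, with a median of -0.53. In Tlr4-/- cells 5 of 7 were higher, with a median of 0.22, and the 2 called ones were lower in both genotypes. The median difference was 1.54 over the leukocyte and macrophage list and -0.31 over the 10 lymphocyte markers. The part of these markers in the differences of the G2/M genes was not tested.

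**Figure D4:**
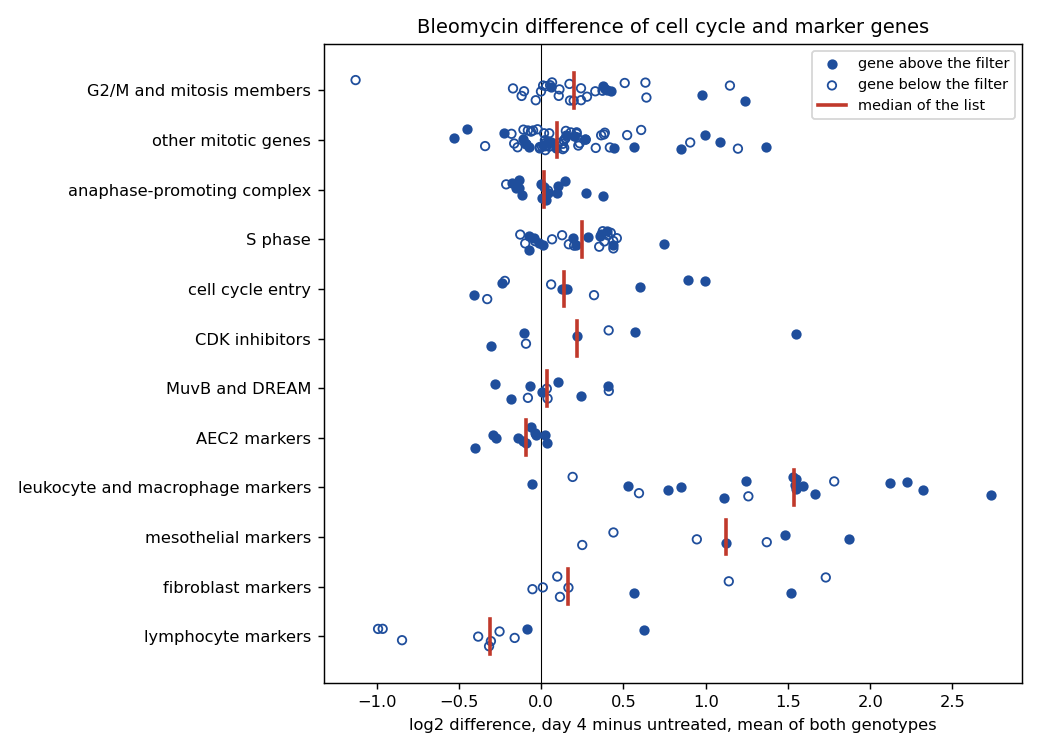
Log2 difference between day 4 and untreated cells, averaged over both genotypes, for each gene of the G2/M list and of 11 other lists; filled points are above the filter, open points below it, and red bars are list medians. The G2/M genes centre on 0.20 with Ube2c, Birc5 and Cdca8 at the right end and Bub1 at the left, and the leukocyte and macrophage markers centre on 1.54.

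For the loss of Tlr4, limma called no member across both treatments, and no gene at all, for genotype (0% of 9096 genes tested and 0% of 18193 without the filter). Tlr4 itself, as the average of its probe sets, was thus not called. A single probe set of Tlr4 differed by -2.68 at day 4 and -1.63 untreated. The lack of calls therefore does not show a lack of differences between the genotypes. At an unadjusted p under 0.05 there were 822 of 9096 genes, 2 of the 7 tested members among them. Without the filter there were 1278 of 18193 genes, 7 of the 31 members among them. These 2 were Cdca8, higher in Tlr4-/- than in wild-type cells by 0.53 ± 0.16 on average (limma, adjusted p = 0.304), and Ube2c, higher by 0.38 ± 0.16 (limma, adjusted p = 0.480).

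At day 4 the median difference between Tlr4-/- and wild-type cells was 0.06 over the members and -0.01 over all genes. This difference was above 0 for 22 of 31 members, beside 48.1% of all genes. The widest was Ccnb2 at 0.81, followed by Birc5 at 0.69, Cdca8 at 0.64 and Ccnf at 0.43, and the lowest was Cenpe at -0.36. In Ccnf it came from 1 of 2 probe sets, which read 7.30 in Tlr4-/- and 6.36 in wild-type cells. In Cdca8 it was 1.10 and 0.75 in a pair of probe sets and 0.05 in the remaining one. No member reached 2-fold in either direction, where 0.0989% of all genes were 2-fold higher and 0.0495% lower. Leukocyte and macrophage markers were also higher in Tlr4-/- at day 4, with a mean log2 signal of 9.10, against 8.85 in wild-type cells. They were higher in untreated Tlr4-/- cells too, at 7.75 against 7.48, and their part was not tested.

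In untreated cells the median was 0.10 over the members and 0.02 over all genes. Above 0 were 21 of 31 members, beside 53.6% of all genes. The highest were Top2a at 0.47, Ube2c at 0.44 and Cdca8 at 0.42. The lowest were Nusap1 at -0.67, Plk1 at -0.54, Cdc20 at -0.37 and Kif22 at -0.36. None reached 2-fold, where 0.731% of all genes were 2-fold higher and 0.462% lower. Markers of other cells differed between the same pair of arrays. The 7 club markers had a mean log2 signal of 9.75 in untreated Tlr4-/- and 11.08 in untreated wild-type cells, with a median difference of -1.54, and the 7 mesothelial markers had a median difference of -0.84. Their part in the differences of the members was not tested. Nusap1 was dim on every array and read 4.52 in untreated Tlr4-/- and 5.19 in untreated wild-type cells. Several of the highest and lowest values rested mainly on a single probe set. It differed by -1.14 in Nusap1, with -0.21 in the other, and by -0.81 in Cdc20, with -0.22 and -0.09 in the others. It differed by -0.86 in Kif22, with -0.09 and -0.13, and by 0.95 in Top2a, with 0.16 and 0.28.

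Members whose genotype difference was on the same side in both treatments included Ube2c (0.33 at day 4 and 0.44 untreated), Cdca8 (0.64 and 0.42), Birc5 (0.69 and 0.29), Ect2 (0.32 and 0.30) and Ccnf (0.43 and 0.30), all higher in Tlr4-/- cells. Those lower in Tlr4-/- cells in both were Nusap1 (-0.21 at day 4 and -0.67 untreated), Plk1 (-0.09 and -0.54) and Bub1 (-0.26 and -0.30). How many of all genes kept the same side was not counted. Mki67 differed by 0.09 at day 4 and 0.15 untreated, both within the spread of 0.23.

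**Figure D5:**
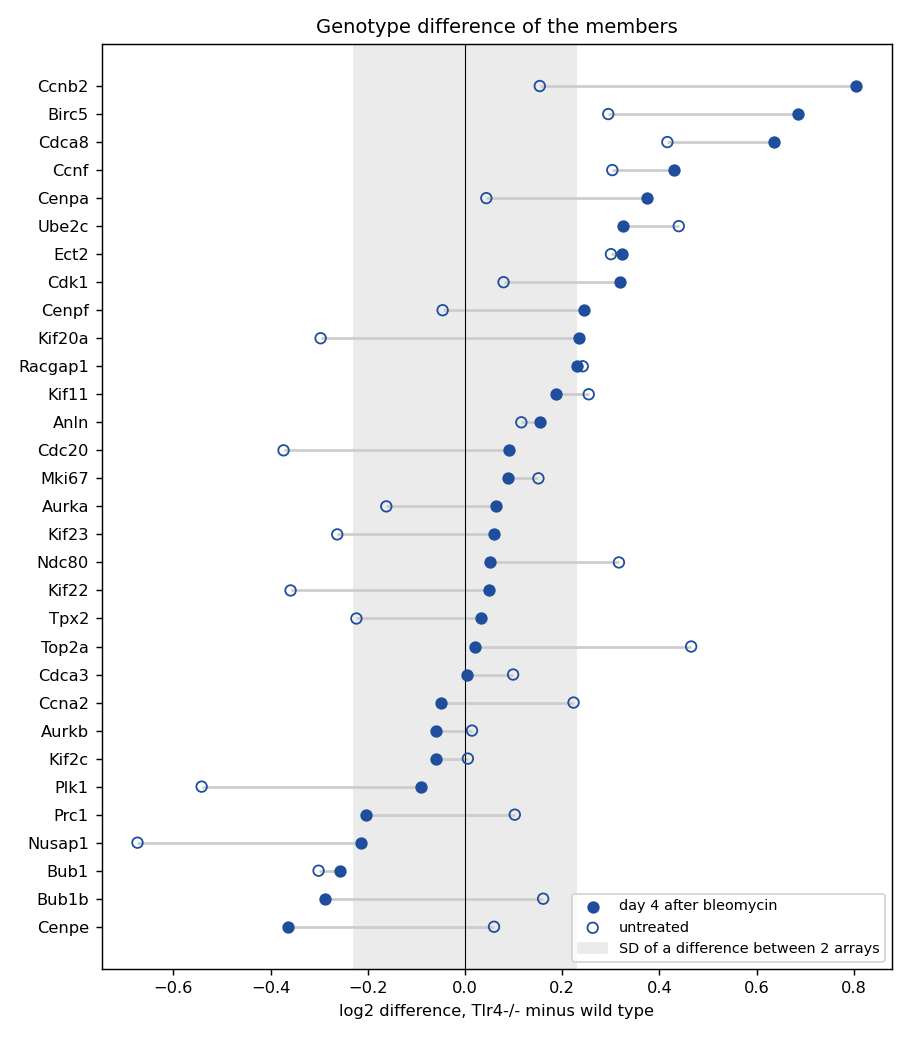
Log2 difference between Tlr4-/- and wild-type cells for each of the 31 members, filled points for day 4 and open points for untreated cells, ordered by the day 4 value; the grey band is 0.23 to either side of 0, the standard deviation of a difference between 2 arrays. Ccnb2, Birc5 and Cdca8 have the highest day 4 values, and Nusap1 and Plk1 have the lowest untreated values.

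The bleomycin difference itself was compared between the genotypes without a test, since the 4 arrays leave no replicate for it. Subtracting the wild-type from the Tlr4-/- difference gave a median of 0.04 over the members and -0.03 over all genes. This gap was above 0 for 18 of 31 members, beside 45.3% of all genes. It was highest for Ccnb2, at 0.65, followed by Kif20a at 0.53, Cdc20 at 0.46, Nusap1 at 0.46 and Plk1 at 0.45. It was lowest for Bub1b, at -0.45, Top2a, at -0.45, and Cenpe, at -0.42. The 7 club markers had a median of 1.56 on the same scale, and their part was not tested. For the members called in either fit it was 0.39 for Birc5, 0.22 for Cdca8, 0.04 for Bub1 and -0.11 for Ube2c. These members were called on the average of the genotypes, with this gap as the residual, so the fit favours genes with like responses. In some genes the gap averages probe sets that differ. It was 1.02, -0.26 and -0.10 in those of Cdca8, the brightest first, and -0.22 and 0.31 in those of Bub1. In those of Cdc20 it was 0.25, 1.10 and 0.05.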

How the data were processed

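AEC2 RNA from 4 pools was amplified, biotin labelled and hybridised to Affymetrix microarrays, per the labels' protocols. The deposited value of each probe set was taken as a log2 signal. This rests on the values alone: the authors' software and normalization are not given in the sources used here. Their number, 1 array a group, limits the precision.

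Of 45101 probe sets, 34945 had 1 gene symbol in the platform annotation, and 34741 of these were updated through RefSeq by Entrez identifier. Averaging the probe sets of a gene left 18193 genes. The 9096 with a mean above 7.05 entered limma (version 3.58.1, R version 4.3.3; lmFit, then eBayes with default settings) with treatment and genotype as terms, with 1 residual degree of freedom. P-values were Benjamini-Hochberg adjusted and called under 0.05. Pairwise differences had no test. The residual is the difference between the genotypes' responses, so p-values do not measure the spread between pools of a group.

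Members and lists were chosen with earlier results of these data known. All members were described, and up to 4 genes of another list were named, those past the filter with the largest smaller difference of the genotypes in 1 direction. Foxm1, Zwint and H2ax were added. The alternatives were no filter, the brightest probe set, quantile normalization, median centring, an intensity trend and leaving out each array.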

Additional observations from a re-analysis of the deposited data

Results flagged for a closer look

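Kif20a, the motor of the spindle midzone, was higher in Tlr4-/- than in wild-type cells at day 4, by 0.24, and lower in untreated cells, at -0.30. It was picked out because its 4 arrays moved in opposite directions in the treatments, with a gap of 0.53 on the log2 scale between the bleomycin difference of Tlr4-/- cells (0.32) and that of wild-type cells (-0.21). The gap was not tested, since there was 1 array a group, and it rests on 1 probe set.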

How the results depend on the processing

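With 2 members called higher and 0 lower for bleomycin, the fit without the filter gave 3 and 1, as did the fit with an intensity trend, the lower one being Bub1. The brightest probe set and quantile normalization each left 1 higher, Ube2c. Under quantile normalization Cdca8 fell below the filter and was not tested. Birc5 and Bub1 were not tested in any setting that used the filter, so their calls were not checked there. Leaving out 1 array, in a fit of treatment alone, gave 0 to 2 higher members. Calls over all genes moved with them. They numbered 653 higher and 230 lower, against 319 and 48 without the filter, 278 and 62 with the brightest probe set, 500 and 248 after quantile normalization, 268 and 100 after centring, 375 and 74 with the trend, and, with 1 array left out, 0 to 808 higher and 0 to 230 lower (0 and 0 without the Tlr4-/- day 4 array, 18 and 3 without the wild-type day 4 array). No setting of limma called a member for genotype. Over the 7 members past the filter, the median bleomycin difference was 0.50 in Tlr4-/- and 0.45 in wild-type cells, and 0 were 2-fold lower in either. The filter uses a mean that includes the day 4 arrays and left out Bub1. These medians and the 0 therefore follow in part from the filter. In wild-type cells 2 members were 2-fold higher with the brightest probe set (Ube2c and Cdca3) and 2 after quantile normalization (Ube2c and Birc5). Between the genotypes the brightest probe set put 1 member 2-fold higher in Tlr4-/- at day 4 (Cdca8, 1.10) and 1 lower untreated (Nusap1, -1.14). It also turned the sign of 6 averages, none of them called (Aurka to 0.19, Kif11 to 0.24, Cenpf to -0.37, Kif2c to -0.12, Racgap1 to -0.03 and Cenpe to -0.0024), and moved Cdc20 to 0.11, Bub1b to -0.36, Bub1 to -1.32, Kif22 to 0.32, Tpx2 to 0.59 and Cdca3 to 0.78. The causes were not tested. No paired analysis was possible because each group had 1 array and the labels carry no replicate numbers, while genotype was already a term of the fit of treatment. Detection calls were not used here, so signal over background is unknown for each member.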
